A study of Homo sapiens with 18 samples.

Results

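This account covers RNA from repeat elements in IMR90 cells after 24 h of 5-fluorouracil (5-FU), set against 24 h of the solvent DMSO. The members were chosen by label: 2 libraries of 5-FU 24 h and 2 of DMSO 24 h, 4 of the 18 samples in the series, with every repeat copy the count table lists. IMR90 is an established line of human lung fibroblasts, wildtype in genotype per the labels. 5-FU was given at 375 µM, and its control cells received DMSO for the same time. The table behind these 4 libraries also holds 5-FU and DMSO groups at 6 h and 12 h and an untreated group with a medium change 12 h before extraction, 2 libraries each. These 10 other libraries helped to estimate the spread, and the 6 h and 12 h groups serve below as a comparison. The labels do not say that replicates came from separate cultures, so p-values measure the spread between libraries, which may be technical. The table lists repeats and no genes, so the fibroblast label could not be checked against marker genes.

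Repeat elements are sequences present in many copies through the genome. Retrotransposons such as LINE-1 (L1), Alu and SVA elements and the endogenous retroviruses with their long terminal repeats (LTRs) spread by copying their RNA, and most copies are fragments that can be transcribed as part of a host gene. Repeat annotation also carries the genes and pseudogenes of short structural RNAs, among them tRNAs, ribosomal RNA, the U RNAs of splicing and of the nucleolus, Y RNAs, 7SL, 7SK and BC200, several of which RNA polymerase III transcribes. 5-FU is an antimetabolite: it inhibits thymidylate synthase and is built into RNA and DNA, and it activates p53, a transcription factor for which LTR10 and MER61 elements carry known binding sites.

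Structural RNAs of 2 kinds turn up repeatedly below. BC200 is a primate RNA that arose from an Alu monomer and is known from neurons and tumours, and the Y RNAs HY1, HY3, HY4 and HY5 are short RNAs that bind the Ro60 protein.

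The 2 libraries of 5-FU 24 h differed from each other in how they spread their counts. Total counts were 4929475 and 5635377 in DMSO replicates 1 and 2, and 5034365 and 6290320 in 5-FU replicates 1 and 2. Drawn down to the same 2412334 counts, the total of the smallest library in the table, DMSO replicates 1 and 2 would show 394044 and 418027 copies with a count, 5-FU replicate 1 would show 288810 and 5-FU replicate 2 would show 431744. Structural RNA took 31.7% and 34.5% of the counts in DMSO, 43.7% in 5-FU replicate 1 and 33.8% in 5-FU replicate 2. The 100 most abundant copies held 49.4% of 5-FU replicate 1 and 36.4% to 38.3% of the other 3 libraries. So 5-FU replicate 1 stood apart from the other 3 in these last 3 measures. Beside the 5-FU libraries of 6 h and 12 h, it was replicate 2 that stood apart. Structural RNA took 38.6% and 39.2% of the counts in 5-FU 6 h and 44.7% and 45.2% in 5-FU 12 h. The 100 most abundant copies held 43.6% and 44.5% in 5-FU 6 h and 50.4% and 50.9% in 5-FU 12 h. The number of copies was 331758 and 312799 in the libraries of 5-FU 6 h and 247818 and 254501 in those of 5-FU 12 h. It was 379345 and 388124 in DMSO 6 h and 382652 and 341335 in DMSO 12 h. Fewer cells, less RNA per cell and RNA quality cannot be told apart in these bulk libraries, and their part in the results was not tested.

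**Figure D1:**
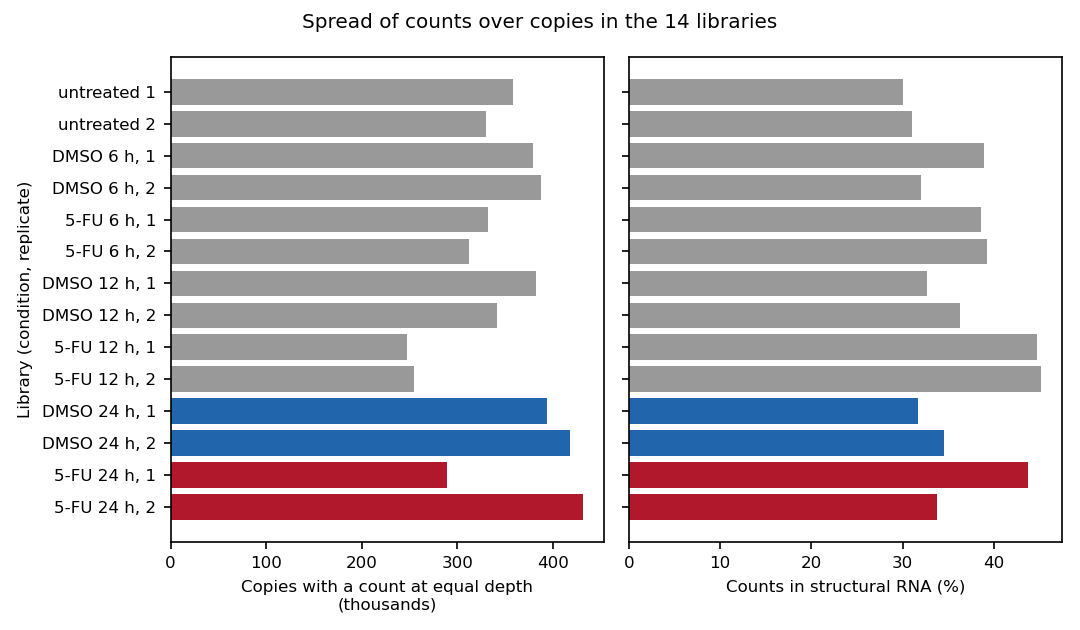
For each of the 14 libraries, the left panel gives the number of copies with a count at equal depth, and the right panel the percentage of counts in structural RNA. Blue bars are DMSO 24 h, red bars 5-FU 24 h and grey bars the other libraries. 5-FU 24 h replicate 1 shows 288810 copies and replicate 2 shows 431744.

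Single copies changed in both directions. Of 2404193 copies listed, 1051680 had a count in the 4 libraries and 63602 passed the filter on low counts and were tested. Copies were called where edgeR's quasi-likelihood test gave an adjusted p (Benjamini-Hochberg, over every tested copy) below 0.05. At 24 h 1536 copies were higher, which is 2.42% of those tested, and 1157 were lower, which is 1.82%, together 4.23%. The 2 groups did not overlap at 2684 of these 2693 copies (4.22% of all tested). Without regard to the test, the 5-FU libraries were both above DMSO at 22.3% of tested copies and both below at 23.1%. The test compares group means and so favours copies at which both 5-FU libraries differ from DMSO. The values of the 5-FU libraries at called copies are therefore a description. Against the DMSO mean, the median log2 ratio (on CPM + 0.5) of the higher copies was 1.92 in replicate 1 and 1.73 in replicate 2. Of the lower copies it was -1.83 and -1.94. Over all tested copies these medians were -0.08 and -0.01. The balance of higher to lower depended on the scaling and on the library. With scaling by library size alone, 1153 were higher and 1741 lower. Without 5-FU replicate 1, 1079 were higher and 1365 lower, and without 5-FU replicate 2, 1796 and 763. In a fit of the 4 libraries alone, 1367 copies were called.

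Many of the changed copies lay side by side. Called copies whose groups did not overlap and whose log2 fold change was 1 or more in size numbered 2518, and joining those that moved the same way within 10 kb of each other gave 829 higher and 572 lower stretches. Of these 1401 stretches, 436 held more than 1 copy and 89 held 5 or more. The row names carry no strand, and no annotation of hg19, the build named in the submitters' processing notes, was used here. A repeat's own transcript and a host transcript that runs through it therefore cannot be told apart, and no copy is placed in an exon, intron or UTR. Below, each stretch is named by its copy with the smallest p, positions are hg19 as in the row names, and values are CPM, the usual depth-normalised read count, computed on the scaled library size.

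The largest higher stretch lay on chromosome 12. It held 47 higher copies of 68 tested between 69203605 and 69246640, and all 68 had a positive fold change. Summed over the tested copies of the stretch, the level was 520 and 415 CPM in DMSO replicates 1 and 2 and 2839 and 2068 CPM in 5-FU replicates 1 and 2. The called copies carried 25 repeat names from 10 of the lists used below, so they were not of 1 kind of repeat. Their shared position and direction come from the rule that joins copies into a stretch. Within 100 kb of the lead copy on either side, 21 more copies were tested outside the stretch, and none of them was called in edgeR's test. Those far to its left scattered around a log2 fold change of 0, while most of those just past its right edge had positive values that did not pass, so its right edge is that of the calls. Its lead copy, L1MA5A (chr12:69237117-69237249), an old L1 fragment, was at 21.2 and 17.2 CPM in DMSO and at 127 and 133 CPM in 5-FU. The log2 fold change was 2.76 ± 0.21 (SE, edgeR adjusted p = 9.2e-08).

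**Figure D2:**
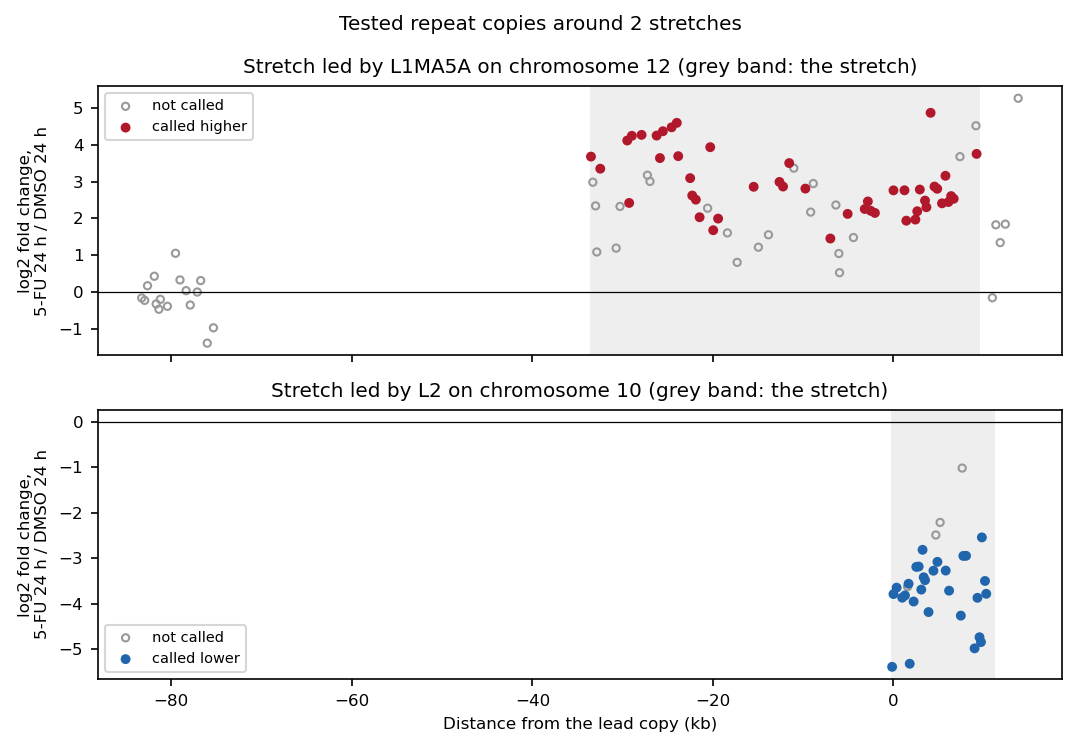
Log2 fold change of 5-FU 24 h over DMSO 24 h at each tested copy (vertical axis) by its distance in kb from the lead copy (horizontal axis), for the stretch led by L1MA5A on chromosome 12 (47 of 68 tested copies called higher) and that led by L2 on chromosome 10 (29 of 33 called lower). The grey band is the stretch, filled points are called copies and open points are not called.

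The stretch led by L2b on chromosome 6 had the highest summed level in 5-FU among the named higher stretches that hold several copies. Its lead copy (chr6:36654978-36655104), a fragment of the ancient LINE-2 family, was at 459 and 404 CPM in DMSO and at 3424 and 1989 CPM in 5-FU, a log2 fold change of 2.65 ± 0.25 (SE, edgeR adjusted p = 1.25e-06). The libraries of 5-FU differed from each other here by less in raw counts, 14781 and 12844, than in CPM. All 14 tested copies between 36648896 and 36655104 had a positive fold change and 9 were called.

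On chromosome 16, L1MB7 (chr16:88455450-88455994) led 10 higher copies of 12 tested over 9.97 kb. It stood at 8.05 and 10.5 CPM in DMSO and at 188 and 123 CPM in 5-FU, a log2 fold change of 4.06 ± 0.28 (SE, edgeR adjusted p = 2.91e-08). Its neighbour ERVL-B4-int, an internal retroviral fragment, went from 4.68 and 3.27 CPM to 106 and 66.9 CPM. The 5-FU libraries were more than 10 times the DMSO libraries at both copies.

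The other named higher stretches were shorter or lower in level. MLT1A1 (chr11:27664028-27664403), a MaLR retroviral LTR, led 10 copies and had 3 counts in each DMSO library against 83 and 84 in the 5-FU libraries. The ratio of the summed, scaled counts was 28.8, with an exact 95% interval from 12.96 to 79.6 that covers counting error only. MER61-int (chr5:111000009-111002187), the inner part of a retrovirus whose LTRs carry p53 sites, led 7 higher copies of 8 tested and went from 4.31 and 3.10 CPM to 34.5 and 30.2 CPM (log2 fold change 3.12 ± 0.32, SE). Copies of MER61A, such an LTR, lay in the same stretch, one of them at 0.374 and 1.20 CPM in DMSO and at 15.5 and 10.2 CPM in 5-FU. L1PA7 (chr3:178701164-178703748), a primate L1, rose from 3.93 and 3.10 CPM to 32.2 and 32.1 CPM, with 4 of the 8 tested copies of its stretch called. The naming rule admits only lead copies whose groups do not overlap. All tested copies of these 3 stretches, including those not called, had a positive fold change.

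FLAM_C and BC200 were single copies with no other called copy within reach. FLAM_C is a left Alu monomer, the kind of element from which BC200 arose. The copy on chromosome 16 (chr16:67844891-67845026) was at 209 and 193 CPM in DMSO and at 1895 and 1327 CPM in 5-FU, a log2 fold change of 3.003 ± 0.23 (SE, edgeR adjusted p = 1.17e-07). The BC200 copy on chromosome 2 (chr2:47562454-47562653) was at 2235 and 2083 CPM in DMSO and at 15938 and 10665 CPM in 5-FU, a log2 fold change of 2.62 ± 0.27 (SE, edgeR adjusted p = 2.61e-06). Its raw counts were nearly equal in the 2 libraries of 5-FU, at 68803 and 68862, and 11938 and 12105 in DMSO. The 2 copies moved together at 12 h as well. FLAM_C was at 112 and 106 CPM in DMSO 12 h and 996 and 1218 CPM in 5-FU 12 h. The BC200 copy was at 973 and 1083 CPM and at 9895 and 12152 CPM in these groups. How reads that match several copies were counted is not given in the sources used here. Whether the 2 copies share reads was not tested, so their rises may not be separate.

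The lower stretches fell from moderate levels to few counts. L1PA15 (chr11:58893817-58894870), a primate L1 fragment, was at 85.2 and 83.3 CPM in DMSO and at 3.01 and 0.929 CPM in 5-FU, a log2 fold change of -5.51 ± 0.33 (SE, edgeR adjusted p = 4.81e-09). AluSx on chromosome 2 (chr2:10270758-10271040) was at 88.2 and 80.3 CPM in DMSO and at 6.02 and 4.65 CPM in 5-FU, a log2 fold change of -3.99 ± 0.25 (SE) with the same adjusted p. Both stood alone, with no other called copy in their stretch. SVA_D on chromosome 2 (chr2:27017556-27018306), a composite primate element, had 96 and 76 counts in DMSO and 0 in both 5-FU libraries, so its level was at least 26.8-fold lower, taking 3 counts in each 5-FU library as the floor. All 9 tested copies of its stretch had a negative fold change, and 5 were called.

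The remaining lower stretches named by the same rule were led by Alu and L1 copies. AluJr4 (chr19:11256548-11256729) led 6 copies, all those tested there, whose summed level was 278 and 230 CPM in DMSO and 32.7 and 23.1 CPM in 5-FU. AluSz (chr1:36201539-36201841) led 4 of 4 tested copies with sums of 59.5 and 53.3 CPM in DMSO and 6.72 and 3.56 CPM in 5-FU. Stretches were made by joining called copies that moved the same way, so the shared direction of these neighbours is a description. L1PA4 (chr2:169723779-169727875) went from 41.4 and 49.9 CPM to 1.85 and 3.56 CPM, AluJb (chr8:48890052-48890318) from 78.1 and 78.6 CPM to 15.3 and 13.01 CPM, and AluSz6 (chr10:94413660-94413950) from 55.6 and 49.9 CPM to 8.11 and 5.11 CPM. Each had a second called copy in its stretch, and log2 fold changes of the 3 lead copies ran from -4.01 to -2.47. All 16 named lead copies stayed called under every alternative setting that could be fitted to them. They were picked for the smallest p in these same libraries, so this does not extend to other called copies. Of 2597 called copies that the fit of the 4 libraries alone could test, 1283 were called there in the same direction.

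**Figure D3:**
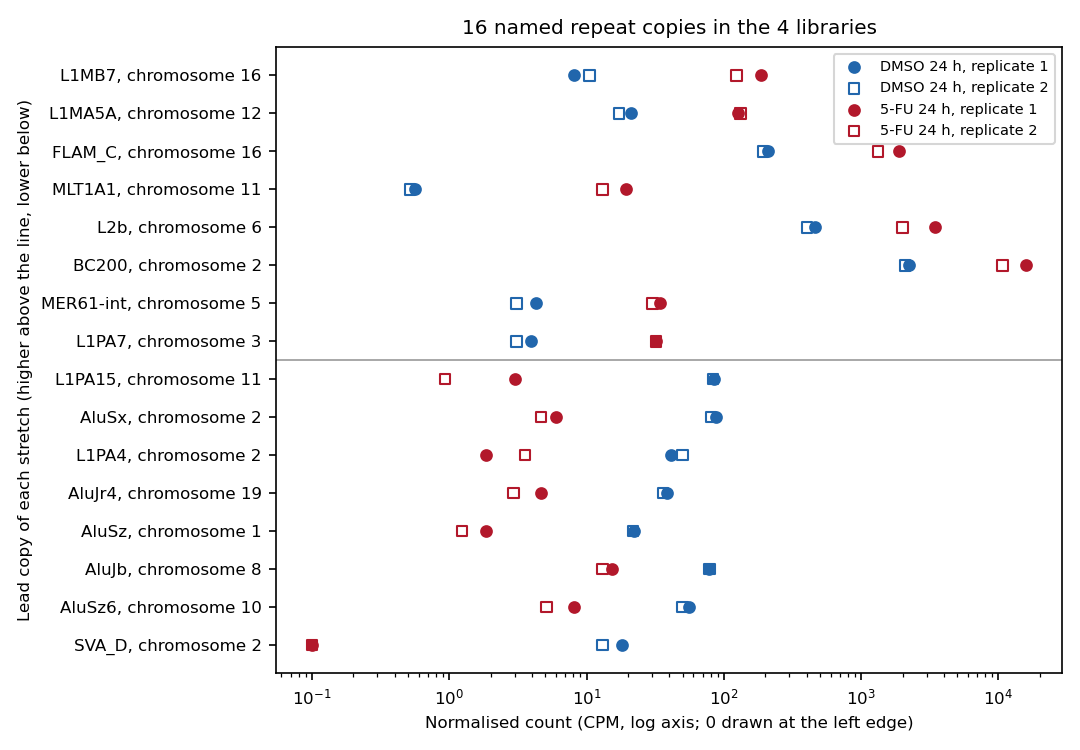
Normalised count in CPM on a log axis (horizontal) of the 16 lead copies (vertical) in the 4 libraries, blue for DMSO 24 h and red for 5-FU 24 h, filled circles for replicate 1 and open squares for replicate 2. The 8 higher copies are above the line and the 8 lower ones below it. The naming rule requires that the colours do not overlap in any row, and SVA_D at 0 in 5-FU is drawn at the left edge.

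The stretch with the most lower copies was not among the 16 and was picked after its values were seen. It lay on chromosome 10 from 96362459 to 96373715, where 29 of 33 tested copies were lower and all 33 had a negative fold change. Summed levels were 237 and 242 CPM in DMSO and 13.9 and 25.4 CPM in 5-FU. No other copy within 100 kb of its lead copy, an L2 fragment, passed the filter, so its edges are those of the tested copies. On chromosome 19, 11 of 17 tested copies between 23277827 and 23294266, led by the beta satellite BSR/Beta, were lower as well, with sums of 79.9 and 81.5 CPM in DMSO and 12.97 and 11.9 CPM in 5-FU.

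Part of the structural RNA names were higher. Of 78 names tested on counts summed over all copies of a name, 26 were higher, 0 lower and 52 not called in edgeR's test, beside 117 higher (10.9%) and 13 lower (1.21%) of all 1078 names. Without regard to the test, both 5-FU libraries were above both DMSO libraries at 36.2% of all names and below them at 8.07%. The median log2 fold change was 0.66 for structural RNA and 0.13 for all names. At single copies, 35 of 367 were higher (9.54%) and 2 lower (0.545%), beside 2.42% and 1.82% of all copies, and the median was 0.21. The direction of the median did not change with the scaling: over names it was 0.52 by RLE scaling, 0.41 by library size, 0.39 without 5-FU replicate 1 and 0.83 without replicate 2. The number of names called higher was 16 under both other scalings, with 1 lower under RLE size factors. The share of all counts in structural RNA was high in 5-FU replicate 1, as given above, and within the range of DMSO in replicate 2.

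Among tRNAs, which carry amino acids to the ribosome, 13 of 56 names were higher (23.2%, beside 10.9% of all names) and 0 lower. At single copies 19 of 154 were higher (12.3%, beside 2.42% of all copies). tRNA-Lys-AAA was at 26.5 and 21.8 CPM in DMSO and at 69.4 and 57.7 CPM in 5-FU (log2 fold change 1.39 ± 0.17, SE, edgeR adjusted p = 0.000269). tRNA-Met went from 27.3 and 22.2 CPM to 82.2 and 61.2 CPM, and tRNA-Gln-CAA from 43.5 and 37.5 CPM to 114 and 81.3 CPM. In each of the 3 both 5-FU libraries were above both DMSO libraries, and replicate 1 was the higher. Without its most abundant copy tRNA-Lys-AAA stayed called (edgeR adjusted p = 0.0307). In tRNA-Met and tRNA-Gln-CAA 1 copy held 68.8% and 82.1% of the counts. Neither name was called without that copy (edgeR adjusted p = 0.279 and 0.546). One tRNA-Ala-GCY copy (chr6:26730737-26730809) had 0 counts in both DMSO libraries and 15.8 and 9.45 CPM in 5-FU, at least 23.4-fold higher with 3 counts per DMSO library as the floor. This copy also varied within other groups, at 7.07 and 0 CPM in 5-FU 6 h, 0 and 3.82 CPM in DMSO 12 h and 6.76 and 0 CPM in 5-FU 12 h. The sum over all tRNA-Ala-GCY copies went from 16.4 and 12.3 CPM to 53.3 and 34.6 CPM. How reads that match several copies were counted is not given in the sources used here, so the copy of origin is uncertain. The median over tRNA names was 0.65, and it was 0.41 with library size alone and 0.41 without 5-FU replicate 1.

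Most names of the splicing RNAs and of the nucleolar RNAs were called higher. Of the spliceosomal RNAs, which form the core of the splicing machine, U2, U4, U5 and U6 were higher, and U1 was at 21839 and 19953 CPM in DMSO and 39059 and 22392 CPM in 5-FU without passing the test (edgeR adjusted p = 0.152). U2 stood at 13071 and 11858 CPM in DMSO and at 27625 and 20419 CPM in 5-FU, a log2 fold change of 0.95 ± 0.14 (SE, edgeR adjusted p = 0.000601). U4 went from 1401 and 1240 CPM to 3264 and 2036 CPM. Of 6 nucleolar names, U3, U8, U13 and U17 were higher, all of them RNAs that guide the processing of ribosomal RNA or of other RNAs. U3, needed for the first cuts of the ribosomal precursor, was at 13378 and 13030 CPM in DMSO and 25131 and 17509 CPM in 5-FU. U14, also nucleolar, was at 34.7 and 29.7 CPM in DMSO and 28.6 and 15.8 CPM in 5-FU, so both 5-FU libraries were below DMSO, without passing the test (edgeR adjusted p = 0.161). Without 5-FU replicate 1 it was called lower (log2 fold change -1.03, edgeR adjusted p = 0.0038). U13_ did not pass the test and its groups overlapped. With RLE size factors only U2 and U4 of the spliceosomal and U8 and U13 of the nucleolar names were still called. Without their most abundant copy U2, U4 and U17 stayed called, and U3, U5, U6, U8 and U13 did not. In U2 the most abundant copy held 98.9% of the counts. Of the others, the U2 copy on chromosome 10 that starts at 103124607 had 129 and 149 counts in DMSO and 237 and 1910 in 5-FU. It stood at 4775 and 5842 CPM in DMSO 12 h. The U2 call without the top copy thus leans on a copy whose counts differ widely between libraries. In U3 the most abundant copy held 99.8% of the counts, and the sum of the others had a log2 fold change of 0.03.

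No ribosomal RNA name was called as a sum in edgeR's test. LSU-rRNA_Hsa, the large subunit, was at 76638 and 138790 CPM in DMSO and 113160 and 81120 CPM in 5-FU, and the groups overlapped (edgeR adjusted p = 0.794). The 5S sum was at 406 and 78.8 CPM in DMSO and 150 and 121 CPM in 5-FU, and without its most abundant copy it was called higher (log2 fold change 0.70, edgeR adjusted p = 0.0442). At single copies of ribosomal RNA 3 were higher (4.62%) and 1 lower (1.54%) of 65, beside 2.42% and 1.82% of all copies. The 5S copy on chromosome 11 that starts at 124506355 went from 5.62 and 3.44 CPM to 44.5 and 28.5 CPM. 7SL, the RNA of the signal recognition particle, was higher, at 44838 and 33972 CPM in DMSO and 91914 and 51506 CPM in 5-FU (log2 fold change 0.86 ± 0.21, SE, edgeR adjusted p = 0.0183). It was not called with RLE size factors (adjusted p = 0.11). 7SK, which holds the elongation factor P-TEFb inactive, was at 104960 and 81099 CPM in DMSO and 188620 and 106470 CPM in 5-FU and missed the threshold (edgeR adjusted p = 0.0562). For 7SL and 7SK the higher library was 5-FU replicate 1, and replicate 2 lay just above the higher DMSO library.

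BC200 had the smallest p of all names and rose from 2298 and 2051 CPM to 16847 and 10999 CPM, a log2 fold change of 2.68 ± 0.16 (SE, edgeR adjusted p = 4.02e-07). The copy on chromosome 2 held 99.7% of its counts, and the sum of the other copies did not pass the test (log2 fold change 0.29, adjusted p = 0.686).

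Of the 4 Y RNA names HY1, HY3 and HY4 were higher and HY5 was at 4.77 and 4.54 CPM in DMSO and 5.62 and 5.58 CPM in 5-FU without passing the test. HY1 was at 464 and 480 CPM in DMSO and 1363 and 967 CPM in 5-FU, a log2 fold change of 1.30 ± 0.19 (SE, edgeR adjusted p = 0.000574). In HY1 1 copy held 95.5% of the counts, and the sum of the others did not pass the test (log2 fold change 0.12, edgeR adjusted p = 0.838). HY3 was at 945.02 and 999.97 CPM in DMSO and 2433 and 2195 CPM in 5-FU, a log2 fold change of 1.25 ± 0.15 (SE, edgeR adjusted p = 0.000204). HY4 was at 54.4 and 50.4 CPM in DMSO and 101 and 65.7 CPM in 5-FU (edgeR adjusted p = 0.0426). It was not called by RLE scaling (adjusted p = 0.177), by library size (0.263) or without 5-FU replicate 1 (0.159). Of the 3 higher names, HY3 differed least between the 2 libraries of 5-FU.

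Within HY3 the counts sat on different copies in the 2 groups. The copy on chromosome 7 (chr7:148680847-148680947) had 4377 and 5418 counts in DMSO and 224 and 251 in 5-FU. The copy on chromosome 12 (chr12:42848522-42848621) had 111 and 13 counts in DMSO and 9427 and 12804 in 5-FU. Both changes were called (edgeR adjusted p = 0.00268 and 0.00893), with opposite signs. Together the 2 copies held 90.6% to 97.0% of the HY3 counts of each of these libraries. The copy on chromosome 12 also held 92.9% of HY3 counts in 5-FU 6 h replicate 2, where its partner replicate 1 had 0 counts there, and at most 2.80% in each of the other 11 libraries. Near-identical copies share reads, and how the authors' counting placed them is not given in the sources used here, so the copy from which the RNA came is uncertain while the sum over copies is less so.

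**Figure D4:**
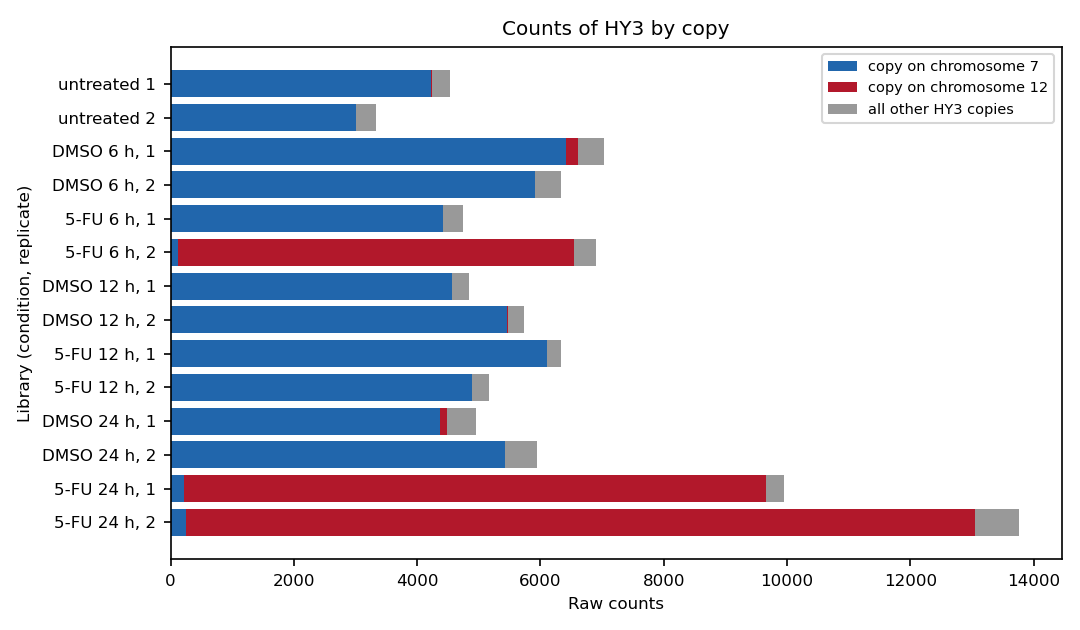
Raw counts (horizontal axis) of HY3 in each of the 14 libraries (vertical axis), split into the copy on chromosome 7 in blue, the copy on chromosome 12 in red and all other copies in grey. The red copy holds most counts in both libraries of 5-FU 24 h and in 5-FU 6 h replicate 2.

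Copies of L1HS, the youngest human L1, with the same consensus span were called in opposite directions. The copy on chromosome 13 (chr13:31876452-31882482) had 0 counts in both DMSO libraries and 39 and 104 in 5-FU. The copy on chromosome 1 (chr1:71979382-71985425) had 172 and 48 counts in DMSO and 2 and 5 in 5-FU. Their counts also varied within other groups. The chromosome 13 copy had 19 and 11 counts in untreated libraries and 5 and 77 in 5-FU 6 h. The chromosome 1 copy had 2 and 46 in untreated libraries. Another L1HS copy (chr1:87144764-87150794) was called higher on 251 counts in 5-FU replicate 1 alone, with 1 in replicate 2 and 0 and 4 in DMSO. The groups overlapped at this copy. All of these L1HS copies were picked after their values were seen. How reads that match several copies were counted is not given in the sources used here, so the copy of origin is uncertain.

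The share of changed copies differed little between most repeat families. AluS had 278 higher (2.68%) and 241 lower (2.33%) of 10358 copies, AluJ 99 and 101 of 4539, L2, L3 and L4 148 and 126 of 7900, and MIR 127 and 72 of 6165. These shares lie near those of all copies, 2.42% higher and 1.82% lower. The young L1 names L1HS and L1PA2 to L1PA8 had 77 higher (3.29%) and 30 lower (1.28%) of 2340 copies, and none of the 8 was called as a sum in edgeR's test, with a median log2 fold change of 0.23. Their share of counts was 1.47% and 1.64% in DMSO, 1.16% in 5-FU replicate 1 and 2.02% in 5-FU replicate 2, so the 2 libraries of 5-FU lay on either side of DMSO. Without 5-FU replicate 1, 90 copies were higher and 18 lower, and without replicate 2, 53 were higher and 61 lower. All 8 were called higher without 5-FU replicate 1 and none without replicate 2. SVA_A and SVA_F were higher as sums, with log2 fold changes of 0.50 and 0.31, and neither was called with RLE size factors.

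**Figure D5:**
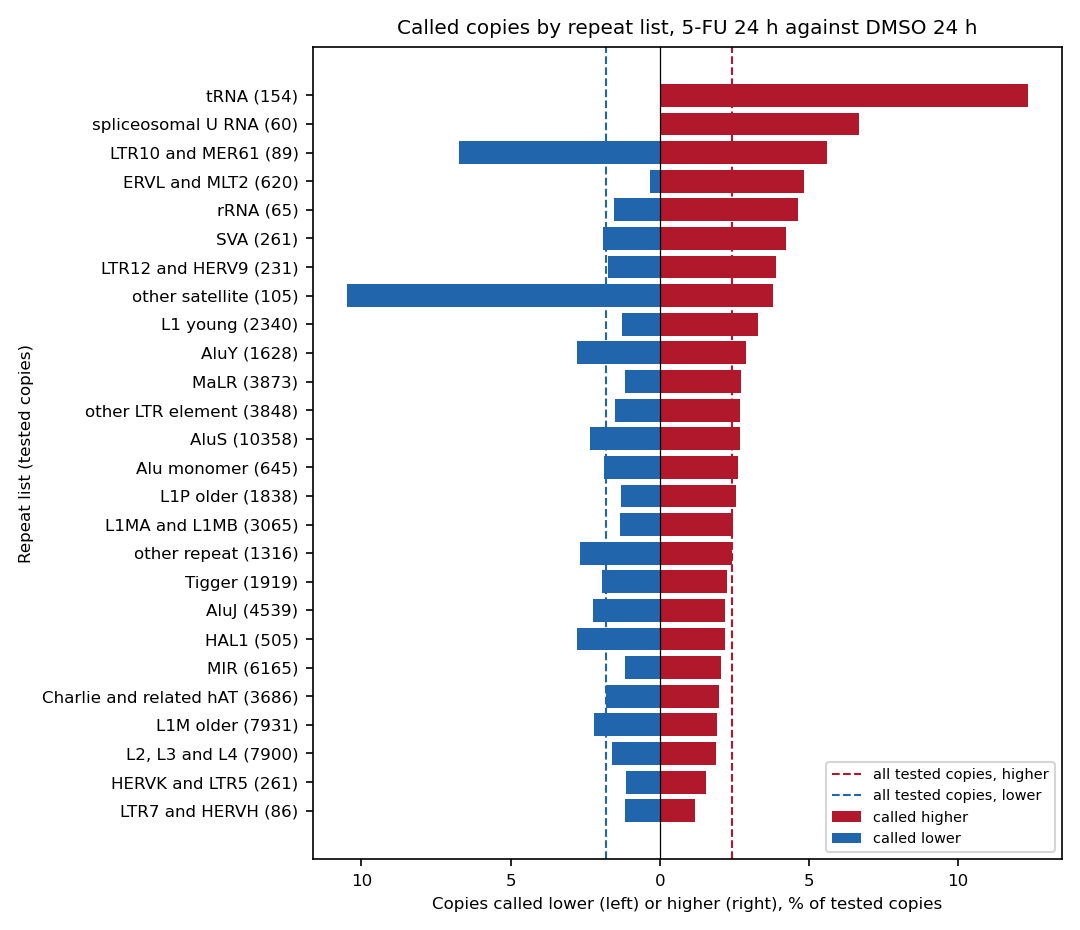
Percentage of tested copies called higher (red, right) and lower (blue, left) in each repeat list with at least 50 tested copies (number tested in brackets). Dashed lines mark 2.42% and 1.82%, the shares over all tested copies. tRNA stands at 12.3% higher and other satellites at 10.5% lower.

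Retroviral elements of the ERVL group, old relatives of the MaLR LTRs, leaned to higher. Of 620 copies in ERVL and MLT2, 30 were higher (4.84%) and 2 lower (0.323%), beside 2.42% and 1.82% of all copies. The 30 lay in 25 stretches. The median log2 fold change was 0.20, and 0.18 with copies at 0 in a group set to their bound. It was 0.07 with library size alone, 0.31 without 5-FU replicate 1 and -0.03 without replicate 2. As sums, 7 of 22 names were higher (31.8%, beside 10.9% of all names) and 0 lower. By RLE scaling 4 were higher, and 1 when only library size was used. HERVL74-int was at 194 and 179 CPM in DMSO and 471 and 434 CPM in 5-FU, a log2 fold change of 1.28 ± 0.11 (SE, edgeR adjusted p = 1.98e-05), and it stayed called without its most abundant copy.

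Of the MaLR names, 15 of 79 were higher (19.0%, beside 10.9% of all names) and 0 lower. By RLE scaling 3 were higher, and 1 when only library size was used. At single copies 105 of 3873 were higher (2.71%) and 45 lower (1.16%), beside 2.42% and 1.82% of all copies. MLT1A-int was at 78.8 and 78.7 CPM in DMSO and 151 and 148 CPM in 5-FU, a log2 fold change of 0.93 ± 0.10 (SE, edgeR adjusted p = 7.38e-05). One copy on chromosome 14 accounted for 57.5% of its counts, and the change was not called when that copy was left out (adjusted p = 0.235). LTR9B, an LTR of another family, went from 86.6 and 89.9 CPM to 190 and 164 CPM and stayed called without its top copy, a log2 fold change of 1.00 ± 0.11 (SE) before and 0.88 after.

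Names of the LTR10 and MER61 list, whose LTRs carry known p53 sites, were called in both directions. MER61-int, the inner part and not an LTR, was at 109 and 114 CPM in DMSO and 215 and 256 CPM in 5-FU. Its log2 fold change was 1.08 ± 0.13 (SE, edgeR adjusted p = 0.000204). MER61A and MER61C were higher too, with log2 fold changes of 0.75 and 1.26. LTR10B1 was lower, at 109 and 92.6 CPM in DMSO and 37.4 and 30.3 CPM in 5-FU, a log2 fold change of -1.59 ± 0.16 (SE, edgeR adjusted p = 7.38e-05). One copy on chromosome 6 accounted for 51.2% of its counts, and LTR10B1 was not called when that copy was left out (log2 fold change -0.62, adjusted p = 0.0973). Thus 3 of the 16 LTR10 and MER61 names were higher (18.8%), 1 was lower (6.25%) and 12 were not called. Over all names 10.9% were higher and 1.21% lower. At single copies 5 were higher (5.62%) and 6 lower (6.74%) of 89, beside 2.42% and 1.82% of all copies. The 5 higher ones lay in 2 stretches.

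The other lower names were few. L1MEa was at 50.6 and 46.2 CPM in DMSO and 15.4 and 22.6 CPM in 5-FU, a log2 fold change of -1.32 ± 0.17 (SE, edgeR adjusted p = 0.000269). LTR06 was at 67.5 and 63.5 CPM in DMSO and 38.9 and 23.4 CPM in 5-FU. In each, 1 copy accounted for much of the total (62.4% and 88.7%), and neither name was called when that copy was left out. L1M3a, MER68-int and AmnSINE2, an ancient SINE, had log2 fold changes of -0.63, -0.57 and -0.62. L1M3a and AmnSINE2 stayed called without their top copy.

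The count of names called higher depended on the scaling and on single copies. Of the 130 called names, 117 (90%) were higher. RLE size factors gave 47 higher and 33 lower, scaling by library size gave 29 and 18, and a fit of the 4 libraries alone called 4 names. The median of all names moved from 0.13 to -0.01 and -0.09 under the 2 other scalings. With the most abundant copy of every name left out, 38 of the 130 were still called in the same direction.

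The change at 24 h was set beside those at 12 h and 6 h, all relative to DMSO of the same time. At 12 h 6177 copies (9.71%) and 364 names (33.8%) were called, and at 6 h 64 copies (0.101%). The difference between the 24 h and the 12 h change was called at 383 copies (0.602%) and 106 names (9.83%), and that between the 24 h and the 6 h change at 245 copies (0.385%) and 12 names (1.11%). The control level of lower copies was not the same at all times. AluSz6 on chromosome 10 was at 22.3 and 27.4 CPM in 5-FU 6 h and 26.02 and 23.4 CPM in its DMSO, at 19.4 and 25.8 CPM in 5-FU 12 h and 23.7 and 21.8 CPM in its DMSO, against 55.6 and 49.9 CPM in DMSO 24 h and 69.6 and 69.04 CPM in the untreated libraries. Its log2 fold change was 0.01 at 6 h, -0.01 at 12 h and -3.02 at 24 h. The fall at 24 h exceeded that at 6 h at all 8 named lower copies, and that at 12 h at 6 of them (edgeR, interaction). These copies were picked for the smallest p at 24 h, which favours a larger fall at 24 h, so this is a description.

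All 8 named higher copies were also called higher at 12 h. Of these 8 copies, the 24 h change differed from the 12 h change only at L1MA5A on chromosome 12, where it was 2.76 at 24 h and 1.52 at 12 h, and DMSO 12 h stood at 45.2 and 50.5 CPM against 21.2 and 17.2 CPM in DMSO 24 h. The BC200 sum had log2 fold changes of 0.66 at 6 h, 3.64 at 12 h and 2.68 at 24 h. Its level in 5-FU was 9940 and 12006 CPM at 12 h, near that at 24 h, and DMSO 12 h was low, at 842 and 916 CPM. HY3 rose at 24 h and not at the earlier times, where its log2 fold change was -0.09 at 6 h and 0.00 at 12 h.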

How the data were processed

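Stranded total RNA of IMR90 was sequenced per the labels. The authors deposited raw counts per repeat copy, and the submitters' processing notes name Trimmomatic 0.32, cutadapt 1.10, Bowtie2, edgeR, DESeq2 and hg19, without roles. How reads that match several copies were counted is not given in the sources used here. All 14 columns of the 5-FU table were mapped to samples by name, and the Nutlin table was not used here. Counts were fitted in edgeR 4.0.16 (R 4.3.3, limma 3.58.1) with filterByExpr, TMM scaling, a mean per group and glmQLFTest, once per copy and once per repeat name (the first word of the row name), whose library sizes and TMM factors came from all copies. Adjusted p-values (Benjamini-Hochberg) run over all features tested. SE is the absolute log2 fold change over the root of F. CPM divide counts by the scaled library size, and SDs have n = 2.

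Named copies are the 8 higher and 8 lower stretches of smallest p, named subfamilies the 6 and 6 of smallest p, plus list members and the lead copy of each structural RNA. The members, lists and rules were chosen with earlier results of these data known. Replicate numbers were not taken to pair libraries: with 2 pairs, the correlation of replicate differences between the groups was 0.14. Alternatives were other scalings, DESeq2 1.42.0, filters, thresholds, smaller fits and leaving out each library. The fits were tested on simulated data. Class shares have no test, since 2 against 2 libraries cannot go below an exact two-sided p of 0.333. Python 3.11.15 was used for tables (pandas 2.3.3, numpy 2.4.6, scipy 1.17.1) and for figures (matplotlib 3.10.9). Sequences of the structural RNAs are not reported here.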

Additional observations from a re-analysis of the deposited data

Results flagged for a closer look

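The 24 h change differed from the change at another time, by a test of the difference itself in edgeR with adjusted p under 0.05, at the features named here. Values are the 24 h log2 fold change minus the other one. The features were picked for the smallest p at 24 h, which favours a larger change at 24 h than at the other times.

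Against 12 h, the difference was 1.24 at L1MA5A on chromosome 12, -2.33 at L1PA15 on chromosome 11, -2.68 at AluSx on chromosome 2 and -2.67 at AluJr4 on chromosome 19. It was -2.47 at AluSz on chromosome 1 and -3.01 at AluSz6 on chromosome 10. At SVA_D on chromosome 2 the fitted difference was -8.34, a value that depends on the prior count because both 5-FU 24 h libraries are at 0. Among names it was -0.96 for BC200, 0.63 for MER61-int, 1.25 for HY3, -1.41 for LTR10B1, -0.98 for L1MEa, -0.72 for L1M3a, -1.03 for LTR06 and -0.84 for AmnSINE2.

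Against 6 h, the difference was 1.90 at L1MB7 and 2.72 at FLAM_C on chromosome 16, 2.08 at the BC200 copy and 2.09 at MER61-int on chromosome 5. It was -5.25 at L1PA15, -4.04 at AluSx, -3.50 at L1PA4, -3.38 at AluJr4, -4.43 at AluSz, -2.17 at AluJb and -3.03 at AluSz6. The fitted value at SVA_D was -9.39, with the same limit as above. Among names it was 2.01 for BC200, 0.74 for HERVL74-int, 0.91 for MLT1A-int, 0.92 for MER61-int, 1.34 for HY3, -1.46 for LTR10B1, -1.18 for L1MEa and -0.69 for MER68-int.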

How the results depend on the processing

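The number of copies called, 2693, was 1367 in a fit of the 4 libraries alone, 1776 with no filter, 4512 against the mean of DMSO 6 h and 24 h, 1130 at an adjusted p under 0.01 and 1009 to 2559 when 1 library was left out, lowest without DMSO replicate 1 (1009) or replicate 2 (1032). The number of names called, 130, was 80 with RLE size factors, 47 with library size alone, 81 with TMM factors from the name sums, 4 in a fit of the 4 libraries alone, 60 without the 12 h libraries, 46 without the most abundant copy, 60 at an adjusted p under 0.01, 27 when the log2 fold change also had to be 1 or more in size, and 53 to 284 when 1 library was left out: 65 and 53 without DMSO replicate 1 and 2, 284 and 240 without 5-FU replicate 1 and 2. DESeq2 called 2740 copies and 105 names, 61 higher and 44 lower. With a replicate block 2407 copies and 119 names were called. The split was 48.8% higher among copies without structural RNA, 48.0% with at least 10 counts in each library and 57.0% in the fit reported. Of the 28 named features, 15 differed between 24 h and 12 h, and 8 with library size alone. Mean copies at equal depth were 406036 in DMSO and 360277 in 5-FU, and 195250 and 167670 with at least 2 counts. Without the most abundant copy the sign turned for HY3 (-2.77), HY4 (-0.56), tRNA-Gln-CAA_ (-0.29), U13 (-0.0055) and U8 (-2.17). Of the alternatives at single named features 676 kept direction and call and 121 kept the direction only. The cause was not tested. Depth limits copies with few counts: a 0 allows up to 3 counts.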
